A study of Mus musculus with 4 samples.

Results

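Immediate-early response genes are switched on from existing transcription factors within minutes of a stimulus, without new protein synthesis, and most of their transcripts are short-lived. Growth factors, flow, cytokines and stress reach them through MAP kinases and through transcription factors such as Srf, which is itself on the list, and their products are mostly transcription factors or brakes on the same signals. In vessels they are known for their response to shear stress, growth factors and wounding. The 45 genes described here were taken by symbol from the 23282 symbols listed for each library, of which 9350 to 11803 had counts. They were ordered into AP-1 factors (11 genes), Egr factors (3), Nr4a receptors (3), Ier genes (3), dual-specificity phosphatases of the Dusp family (6), regulators of RNA decay (5) and a last group of feedback and other genes (14).

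Endothelial cells (ECs) of the dura mater, the outermost meningeal membrane, were set against those of the brain parenchyma. The mice were C57BL/6J at 8 weeks of age and carried no labelled transgene or treatment. There were 2 libraries for each tissue, and the number of mice behind each is not stated in the sources used here. Tissue was dissociated by warm digestion in a mix of collagenase, dispase and DNase. Cells that bore CD31 but neither CD45 nor TER-119 were then sorted by flow cytometry. RNA was thus measured after these steps. Levels in the tissue before them, and any change during them, were not tested. Brain cells alone were enriched on CD31 magnetic beads before the sort, so tissue and bead step cannot be told apart. Libraries were made with QuantSeq, which counts the 3′ ends of polyadenylated transcripts. Depth was 13518973 to 16096203 counts per library, and values are given as CPM (counts scaled to library size, with TMM scaling between libraries).

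Immediate-early genes were more strongly represented in dura mater ECs. Their summed counts made up 1.29% and 1.21% of the brain libraries, against 4.79% and 4.91% of the libraries from dura mater. Both dura mater libraries thus lay above both brain libraries, and the means were 1.25% ± 0.0589 and 4.85% ± 0.0822 (SD, n = 2 each), a 3.88-fold difference in share. With 2 libraries against 2, an exact two-sided permutation test of a single value such as this cannot go below p = 0.333. By mean CPM, 41 of the 45 genes were higher in dura mater ECs, Rhob and Per1 were lower, and Dusp4 and Dusp5 were at 0 in every library. The most counted member was Rhob in brain (0.346% and 0.267% of counts) and Junb in dura mater (0.641% in each).

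**Figure D1:**
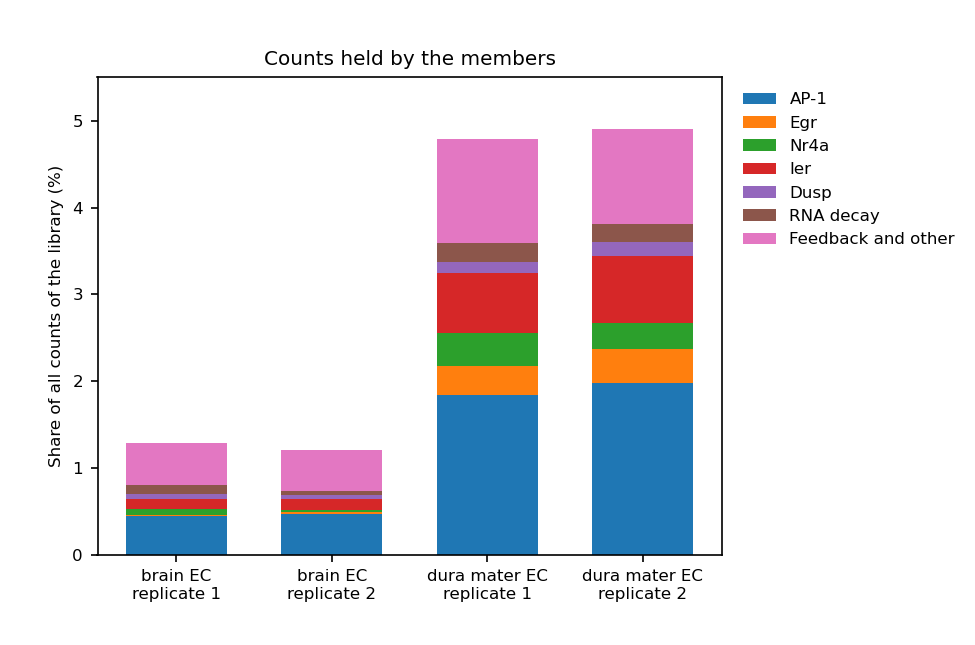
Share of each library's counts held by the immediate-early genes, in percent, stacked by group for 2 brain EC and 2 dura mater EC libraries; each bar is 1 library. The bars reach 1.29% and 1.21% in brain and 4.79% and 4.91% in dura mater, and AP-1 and the feedback group form the largest blocks in every library.

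In the test across all genes (edgeR quasi-likelihood with Benjamini-Hochberg adjustment over 9347 genes), Egr1, Fosb, Junb, Ier3, Zfp36 and Ppp1r15a rose in dura mater ECs at an adjusted p under 0.05 and no member fell. These are 6 of the 45 genes, beside 0.428% of all tested genes that passed in this direction and 0.182% that passed in the other. At an unadjusted p under 0.05, 26 members were higher and 0 were lower, beside 7.04% of all genes that were higher. In 35 members both dura mater libraries exceeded both brain libraries, which held for 26.2% of the genes tested, and in 0 members was the reverse seen, which held for 16.9% of the genes. Of the 45 genes, 41 passed the filter on low counts. 3 of these, Egr2, Nr4a3 and Cebpb, had under 10 counts in both brain libraries and so passed through the dura mater libraries. The 31 members with at least 64 counts in every library, a limit set after the data were seen, are free of that selection. Their median log2 fold change (dura mater over brain) was 1.96 and 29 of them (93.5%) lay above 0, beside a median of -0.16 and 44.0% for the 4266 genes that met the same limit. Without any such limit, 49.8% of the tested genes had a log2 fold change above 0.

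The count of members called varied with the model, while all calls lay in the same direction. DESeq2 called 23 members, all higher in dura mater ECs, beside 6.63% of all genes in this direction, and leaving out brain replicate 1 or brain replicate 2 raised the edgeR count to 25 or 23. Calls of all genes rose as well on leaving these out, to 4.22% and 4.20% in this direction, and the median log2 fold change of all genes moved to 1.03 and 0.95. Replicates differed by more than sampling noise, with a common biological coefficient of variation of 1.39 across all genes. Between replicates the members differed less than the tested genes at large. Their median absolute difference between replicates, in log2(CPM + 1), was 0.70 in brain and 0.47 in dura mater, beside 1.28 and 1.08 for all tested genes. Genes were not matched by level in this comparison. Of the 41 tested members, 31 had at least 64 counts in every library, beside 4266 of the 9347 tested genes.

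**Figure D2:**
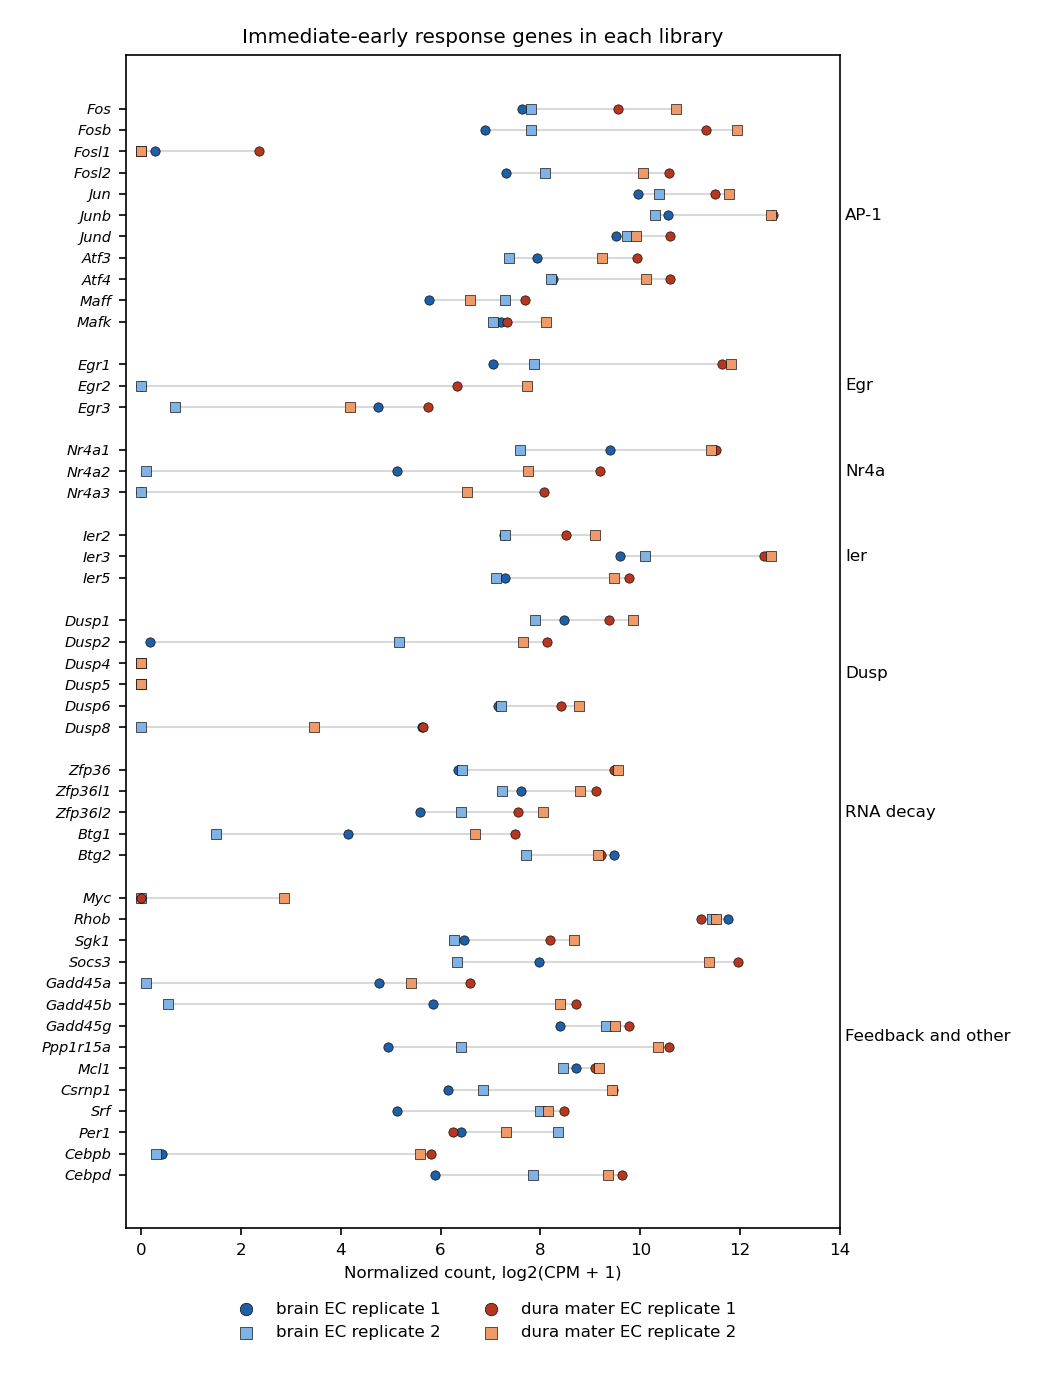
Normalized count of each of the 45 genes in each of the 4 libraries, as log2(CPM + 1), ordered by group; blue marks are brain ECs, red and orange marks are dura mater ECs, circles are replicate 1 and squares replicate 2. Blue and red marks stand apart for 35 genes, while Rhob, Per1, Btg2, Maff, Dusp8 and Egr3 overlap and Dusp4 and Dusp5 lie at 0.

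Many short-lived transcripts carry AU-rich elements in their 3′ untranslated region (UTR), the pentamer ATTTA and the longer nonamer TTATTTATT, which contains the pentamer, and these are the sites that proteins of the Zfp36 family bind to start decay. In the GENCODE M21 models of the GRCm38 assembly, 1 coding transcript per gene was read, the one with the longest coding sequence. Where these tied, the longest 3′ UTR was taken. Of the 41 tested members, 87.8% had at least 1 pentamer in this UTR, beside 67.1% of the 8805 tested genes with such a UTR. The median was 4 pentamers per member and 1 per gene, or 2.53 and 1.27 per kilobase. The nonamer was found in 13 members (31.7%) and in 6.98% of all genes. This is a description of annotated sequence on the transcript strand, without a test. The members belong to a class known for short-lived transcripts, so their choice was not independent of this feature. The 6 genes that were called each had at least 1 pentamer, with a median of 2.5 per gene in shorter UTRs (693.5 bases at the median, beside 1189 for the 41), or 4.0 per kilobase. Nonamers are given here in capitals within 30 bases of UTR (5′ to 3′, as DNA) for 2 called genes, Zfp36 and Ppp1r15a, and for 3 other members of different groups.
Zfp36: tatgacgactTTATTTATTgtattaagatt
Ppp1r15a: tagtttcctaTTATTTATTtatttatttat
Fos: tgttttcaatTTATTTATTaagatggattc
Dusp1: gagctggtccTTATTTATTtaacacccccc
Csrnp1: cactctgaatTTATTTATTtttttatgttt

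The stretch of Ppp1r15a runs on in the same repeat, so that its UTR of 76 bases held 4 overlapping nonamers, whereas that of Zfp36 held 1 in 774 bases. The transcript of Zfp36 thus holds the motif that its protein is known to bind. Other early response genes, a list of 38 genes outside the 45, had the nonamer in 26.5% of their UTRs, while it was absent from those of 14 heat shock genes and 12 pan-endothelial markers.

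**Figure D3:**
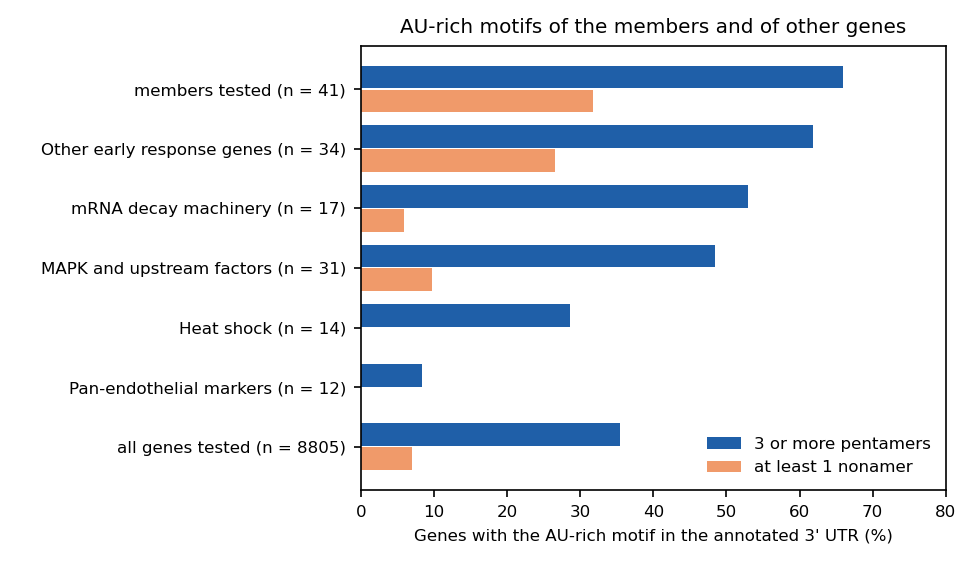
Percent of genes with 3 or more ATTTA pentamers (blue) and with at least 1 nonamer (orange) in the annotated 3′ UTR. The UTR is that of the coding transcript with the longest coding sequence, for the tested members, 5 other lists and all tested genes. The number of genes with a UTR is n. The members reach 65.9% and 31.7%, beside 35.4% and 6.98% of all genes.

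Promoters were read from RefSeq windows of GRCm38.p6 that run from 250 bases before to 50 bases after each start, available for 37 of the 45 genes (52 windows). On either strand, the CArG box, to which Srf binds, lay in 13.5% of the members' windows and in 1.63% of the 32851 windows of all genes, and the CRE, the letters TGACGTCA bound by Creb and Atf factors, lay in 9.62% and 1.79%. The AP-1 letters TGACTCA lay in 1.92% and 5.20%. In the 9222 windows of tested genes alone the shares were 1.29% for the CArG box, 3.09% for the CRE and 3.61% for the AP-1 letters. The letters of these 3 motifs do not overlap each other. CArG boxes lay in Egr2, Srf, Zfp36 and Dusp5, and CREs in Ppp1r15a, Dusp1, Dusp8, Btg2 and Maff. 4 of the members' windows with a CArG box are neighbouring starts of Egr2, so that windows are not independent. These are matches of letters, not shown sites of binding. Stretches are given 5′ to 3′ on the gene's strand with the motif in capitals, a CArG box in Zfp36 (chr7:28379237-28379326, minus strand), Egr2 (chr10:67537757-67537846, plus strand) and Srf (chr17:46556175-46556284, minus strand) and a CRE in Ppp1r15a (chr7:45526231-45526320, minus strand).
Zfp36: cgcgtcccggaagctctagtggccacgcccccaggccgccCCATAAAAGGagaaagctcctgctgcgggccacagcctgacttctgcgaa
Egr2: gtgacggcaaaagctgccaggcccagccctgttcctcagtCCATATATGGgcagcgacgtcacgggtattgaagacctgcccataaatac
Srf: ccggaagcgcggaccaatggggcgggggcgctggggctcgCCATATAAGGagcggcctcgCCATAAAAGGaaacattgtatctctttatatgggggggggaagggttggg
Ppp1r15a: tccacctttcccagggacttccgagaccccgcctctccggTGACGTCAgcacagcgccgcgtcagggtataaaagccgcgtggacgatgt

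The box of Zfp36 begins 58 bases before its start and the CRE of Ppp1r15a 12 bases before its start. Of the 9 members with either motif these were the 2 that were called. Egr1, which was also called, had no window and was not read for either motif. Btg2, Maff and Dusp8, each with a CRE, had log2 fold changes of 0.33, 0.52 and 0.28 with overlapping groups, and Dusp5 was at 0. Srf, with 2 boxes, was at 34.2 and 253 CPM in brain and at 355 and 282 CPM in dura mater. Its brain libraries stood far apart, and its log2 fold change of 1.15 did not pass the test (SE 0.89, adjusted p = 0.87).

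AP-1 factors are dimers of Fos, Jun, Atf and Maf proteins that bind the AP-1 and CRE letters. The group held 0.445% and 0.470% of counts in brain and 1.84% and 1.98% in dura mater, a 4.18-fold difference of means, and 2 of its 11 genes, Fosb and Junb, rose. Fosb, a partner of Jun proteins (chromosome 7, 19302696 to 19310051, minus strand), was at 117 and 225 CPM in brain and at 2535 and 3907 CPM in dura mater. The lowest dura mater library was thus 11.3-fold above the highest brain library, and the log2 fold change was 4.24 (SE 0.47, adjusted p = 0.025). Junb (chromosome 8, 84974484 to 84978718, minus strand) was at 1500 and 1259 CPM in brain and at 6463 and 6323 CPM in dura mater. Its dura mater libraries were close to each other and well above brain, with a log2 fold change of 2.21 (SE 0.26, adjusted p = 0.025). An antisense gene, Prdx2, overlaps 7.52% of the exon length of Junb, and whether strand was used in counting is not given in the sources used here. Reads of such pairs can then not be told apart. Among other members, this applies also to Cebpb (20.7% of exon length), Gadd45a (19.1%), Cebpd (15.0%), Jun (7.275%), Csrnp1 (6.45%), Zfp36 (3.60%) and Ppp1r15a (0.409%).

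Fos and Jun, the founding pair of AP-1, are given with their values although they were picked after these were seen. Fos was at 196 and 225 CPM in brain and at 747 and 1684 CPM in dura mater. The dura mater libraries differed 2.25-fold, and the log2 fold change of 2.53 did not pass adjustment (SE 0.48, adjusted p = 0.13). Jun was at 994 and 1328 CPM in brain and at 2879 and 3486 CPM in dura mater, so that groups did not overlap, with a log2 fold change of 1.45 (SE 0.30, adjusted p = 0.15). Fosl2, Atf3 and Atf4 had log2 fold changes of 1.96 to 2.58 with unadjusted p under 0.05, and Jund, Maff and Mafk had 0.52 to 0.67. Over 52.6% of the exon length of Jund an antisense gene is annotated. Fosl1, a further gene of the Fos family, had 3 and 0 counts in brain and 56 and 0 counts in dura mater and was not tested. Its only sizeable value thus comes from dura mater replicate 1.

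Egr factors are zinc-finger proteins that bind GC-rich promoters. The group held 0.0158% and 0.0223% of counts in brain and 0.328% and 0.389% in dura mater, an 18.8-fold difference of means and the largest fold among the 7 groups. Egr1, on chromosome 18, was at 132 and 232 CPM in brain and at 3178 and 3607 CPM in dura mater. All dura mater values were at least 13.7-fold above those of brain, with a log2 fold change of 4.22 (SE 0.40, adjusted p = 0.025). Egr2 had 0 counts in either brain library but stood at 79.6 and 212 CPM in dura mater (1068 and 3459 counts). Against a floor of 3 counts in each brain library (0.217 CPM), its mean in dura mater lay 672-fold higher, yet the adjusted p was 0.074. This floor is a convention and sets no bound on the level in brain. In 24.6% of all tested genes one brain library had 7 or fewer counts and the other at least 64. Egr3 was at 26.0 and 0.605 CPM in brain and at 53.0 and 17.3 CPM in dura mater. Its groups overlapped, and the log2 fold change was 1.39 (SE 2.45).

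Nr4a proteins are orphan nuclear receptors, transcription factors that act largely through their abundance. The 3 genes held 0.0706% and 0.0184% of counts in brain and 0.377% and 0.307% in dura mater. In each of them dura mater lay above brain without overlap, but 0 passed adjustment. Nr4a1 (Nur77), the member with the highest CPM, was at 670 and 192 CPM in brain and at 2944 and 2724 CPM in dura mater. Brain replicates differed 3.48-fold and dura mater replicates hardly at all, and the log2 fold change was 2.72 (SE 0.60, adjusted p = 0.19). Nr4a2 was at 33.9 and 0.0756 CPM in brain, the second being 1 count, and at 585 and 215 CPM in dura mater. Nr4a3 was at 0 in both brain libraries and at 269 and 90.8 CPM in dura mater (3610 and 1483 counts). Its mean in dura mater lay 830-fold above the same floor, which is no bound here either, with an adjusted p of 0.054.

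Ier genes encode small nuclear or membrane proteins induced along with AP-1. They held 0.108% and 0.133% of counts in brain and 0.692% and 0.763% in dura mater, a 6.05-fold difference of means. Ier3, which modulates cell survival and MAP kinase signalling and lies on chromosome 17 (35821684 to 35822923, plus strand), stood at 767 and 1092 CPM in brain and at 5739 and 6268 CPM in dura mater. It was the member with the second largest share of counts in dura mater, and it rose with a log2 fold change of 2.69 (SE 0.30, adjusted p = 0.025). Ier2 and Ier5 had log2 fold changes of 1.54 and 2.44, each without overlap of the groups and with unadjusted p under 0.05.

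Dusp phosphatases close the loop by removing phosphates from MAP kinases. The group held 0.0546% and 0.0401% of counts in brain and 0.132% and 0.160% in dura mater, and 0 of its 6 genes were called. Dusp1, which acts mainly on p38 and JNK, was at 354 and 238 CPM in brain and at 667 and 927 CPM in dura mater. The groups did not overlap, with a log2 fold change of 1.43 (SE 0.40, adjusted p = 0.33). Dusp6, specific for ERK, had a log2 fold change of 1.42. Dusp2 was at 0.138 and 34.8 CPM in brain and at 278 and 201 CPM in dura mater, with a log2 fold change of 3.77 (SE 1.90, adjusted p = 0.55). Dusp8 was at 48.5 and 0 CPM in brain and at 49.1 and 9.98 CPM in dura mater, so that each tissue had a high and a low library and no direction can be given. Dusp4 and Dusp5 had 0 counts in each library.

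Such gaps between replicates were also seen elsewhere. 5 members, Nr4a2, Dusp2, Dusp8, Gadd45a and Gadd45b, had 7 or fewer counts in one brain library and at least 64 in the other, and 24.6% of all tested genes did so. In 4 of them brain replicate 2 was the low library, and in Dusp2 it was brain replicate 1. Gadd45a and Gadd45b, stress-induced regulators of p38 signalling and growth arrest, were at 26.1 and 0.0756 CPM and at 56.2 and 0.454 CPM in brain. In dura mater they were at 95.3 and 41.5 CPM and at 419 and 336 CPM. Across the tested members, 15 differed more than 2-fold between the brain libraries, 9 with the lower value in replicate 2 and 6 in replicate 1, so no single brain library was low throughout. Between the dura mater libraries 9 members differed more than 2-fold.

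The regulators of RNA decay include Zfp36 (tristetraprolin) and its relatives, which bind the AU-rich elements shown above and recruit deadenylases, and Btg1 and Btg2, which bind the deadenylase complex directly. They held 0.105% and 0.0507% of counts in brain and 0.221% and 0.216% in dura mater. Zfp36 (chromosome 7, 28376784 to 28380253, minus strand) was at 80.1 and 85.3 CPM in brain and at 715 and 753 CPM in dura mater. Replicates were within 1.07-fold of each other in both tissues, and the log2 fold change was 3.15 (SE 0.39, adjusted p = 0.031). Without dura mater replicate 2 the adjusted p of Zfp36 was 0.052. Zfp36l1 and Zfp36l2 had log2 fold changes of 1.53 and 1.77, without overlap of the groups. An antisense gene covers 55.9% of the exon length of Zfp36l1. Btg1 was at 16.7 and 1.81 CPM in brain and at 179 and 102 CPM in dura mater, with the largest log2 fold change of this group (3.91, SE 1.39, adjusted p = 0.47). Btg2 was at 712 and 210 CPM in brain and at 593 and 566 CPM in dura mater, so that both dura mater values fell between those of brain.

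The last group combines feedback inhibitors with survival and stress genes. It held 0.491% and 0.473% of counts in brain and 1.20% and 1.09% in dura mater, and 1 of its 14 genes was called. Ppp1r15a (Gadd34), the subunit that directs a phosphatase to the translation factor eIF2 and so restores translation after stress (chromosome 7, 45522916 to 45526268, minus strand), was at 29.9 and 83.5 CPM in brain and at 1520 and 1306 CPM in dura mater. The lowest dura mater library was 15.6-fold above the highest brain library, and the log2 fold change was 4.64 (SE 0.60, adjusted p = 0.037). Atf4, which acts in the same stress response, was at 303 and 295 CPM in brain and at 1544 and 1111 CPM in dura mater, with a log2 fold change of 2.15 (SE 0.35, adjusted p = 0.074).

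Socs3, an inhibitor of cytokine receptor signalling, and Csrnp1, a nuclear protein, were named after their values had been seen. Socs3 was at 249 and 79.8 CPM in brain and at 3958 and 2646 CPM in dura mater. This was one of the largest differences in level among the members that were not called, with a log2 fold change of 4.33 (SE 0.63, adjusted p = 0.054). Csrnp1 was at 70.2 and 115 CPM in brain and at 703 and 694 CPM in dura mater, with a log2 fold change of 2.92 (SE 0.45, adjusted p = 0.061). Cebpb, a transcription factor of inflammatory and acute-phase genes, had 5 and 3 counts in brain and was at 55.1 and 46.8 CPM in dura mater. Its log2 fold change of 6.91 rests on those few counts (SE 2.43, adjusted p = 0.47). Its relative Cebpd, at 58.6 and 231 CPM in brain and at 794 and 653 CPM in dura mater, did not overlap between tissues either.

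A few members did not share the common direction. Rhob, a small GTPase of endosomes and the cytoskeleton, was at 3452 and 2787 CPM in brain and at 2380 and 2913 CPM in dura mater. Its groups overlapped, with a log2 fold change of -0.24 (SE 0.27, adjusted p = 1). Per1, a clock gene that also responds to stimuli at once, was at 83.8 and 326 CPM in brain and at 75.4 and 157 CPM in dura mater, with a log2 fold change of -0.82 (SE 0.81). Mcl1, Gadd45g and Sgk1 did share the common direction, with log2 fold changes of 0.54, 0.72 and 2.09 without overlap of the groups. Myc had 0 counts in 3 libraries and 103 counts in dura mater replicate 2, and was not tested.

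**Figure D4:**
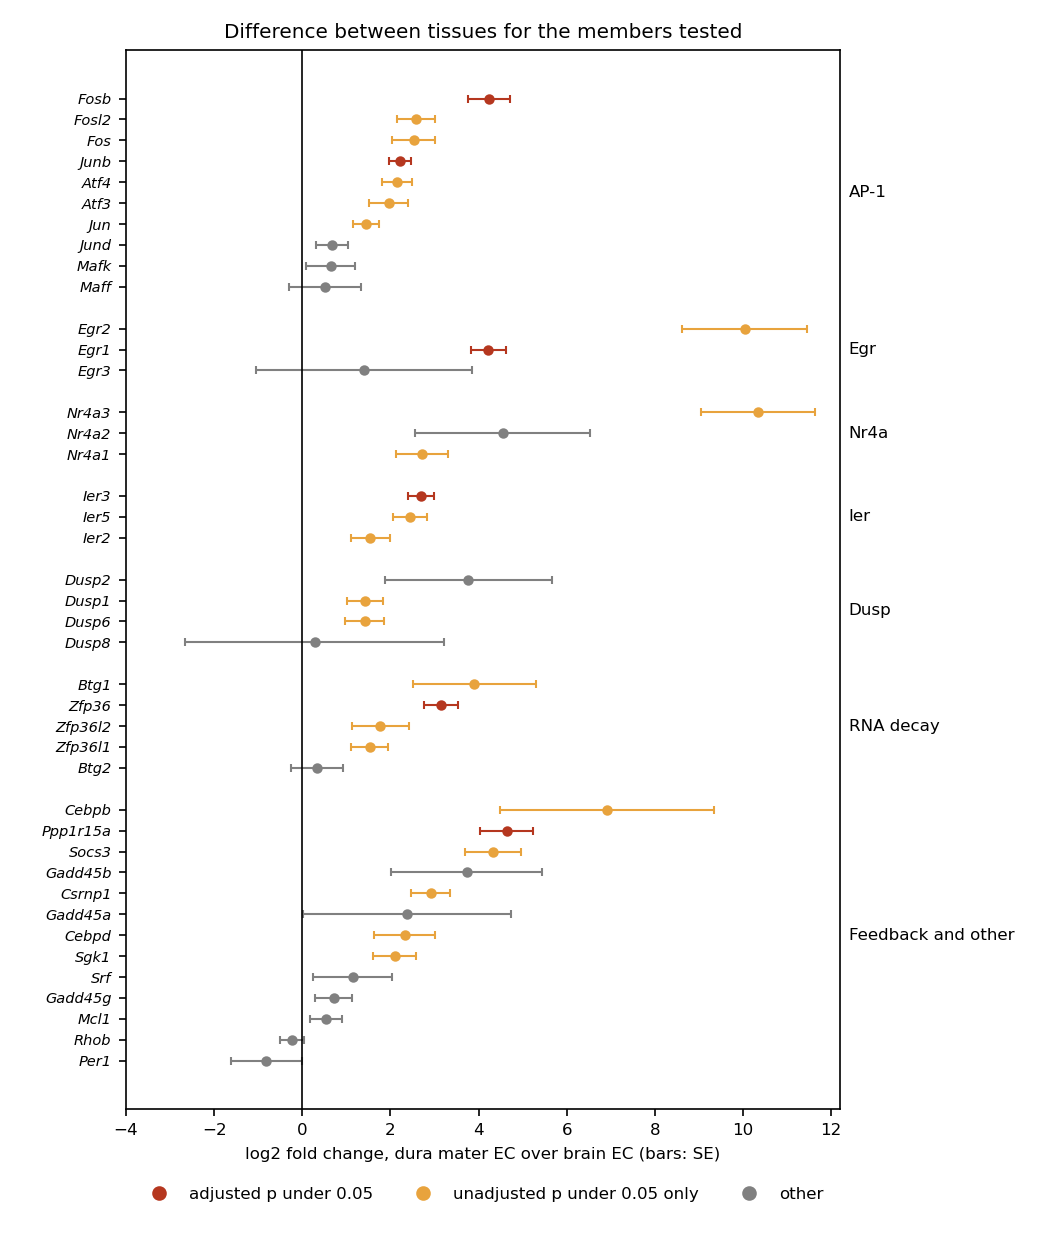
Log2 fold change of dura mater EC over brain EC for the 41 tested members, ordered by size within each group; bars are the standard error of the edgeR fit with 2 libraries per tissue, red marks an adjusted p under 0.05 and orange an unadjusted p under 0.05 only. 39 points lie above 0, Rhob and Per1 lie below it, and the 6 called genes are not those with the largest fold changes, since Egr2, Nr4a3 and Cebpb have wide bars.

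The same comparison was made for genes around these 45. Of the 37 MAP kinases and upstream factors, which carry the signal to immediate-early promoters, 33 were tested and 0 were called (2 at an unadjusted p under 0.05, 2 by DESeq2). Their median log2 fold change was 0.29, with 20 above and 13 below 0. Of the 16 with at least 64 counts in every library, 6 lay above 0 and the median was -0.27. The lowest unadjusted p values belonged to the JNK kinase Mapk9, at 239 and 388 CPM in brain and at 67.9 and 73.1 CPM in dura mater, and to the stress kinase Map3k5, at 0 and 0.227 CPM in brain and at 50.2 and 56.8 CPM in dura mater. These went in opposite directions, and Map3k5 (0 and 3 counts in brain) passed the filter through dura mater alone. Of 38 other early response genes outside the 45, 36 were tested, and 10 of these had under 10 counts in both brain libraries and so passed the filter through dura mater alone. The summed share of the list differed 1.73-fold between tissues. Of the 20 genes with at least 64 counts in every library, 14 lay above 0, with a median of 0.94, and 9 had an unadjusted p under 0.05, all higher in dura mater ECs. 1 gene of the list was called, Nfkbiz, an inducible regulator of NF-kappaB target genes. Nfkbiz was at 15.7 and 31.9 CPM in brain and at 718 and 414 CPM in dura mater, with a log2 fold change of 4.56 (SE 0.63, adjusted p = 0.046).

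The 14 heat shock genes, a second class of rapid stress response, had a median log2 fold change of 0.62 with 13 above 0, and 0 were called (2 at an unadjusted p under 0.05, 2 by DESeq2). Hsp90aa1, a cytosolic chaperone, was at 69.1 and 92.4 CPM in brain and at 462 and 287 CPM in dura mater. Hspa5, the chaperone of the endoplasmic reticulum, was at 366 and 855 CPM in brain and at 2220 and 1918 CPM in dura mater. Both were thus higher in both dura mater libraries, with adjusted p of 0.23 and 0.27. Among the 18 genes listed as mRNA decay machinery, 0 were called (2 at an unadjusted p under 0.05, 0 by DESeq2). The median was -0.46, with 6 above and 12 below 0. The deadenylase Cnot6l was at 156 and 388 CPM in brain and at 87.9 and 91.7 CPM in dura mater, and the decapping enzyme Dcp2 at 265 and 130 CPM in brain and at 11.3 and 59.2 CPM in dura mater.

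**Figure D5:**
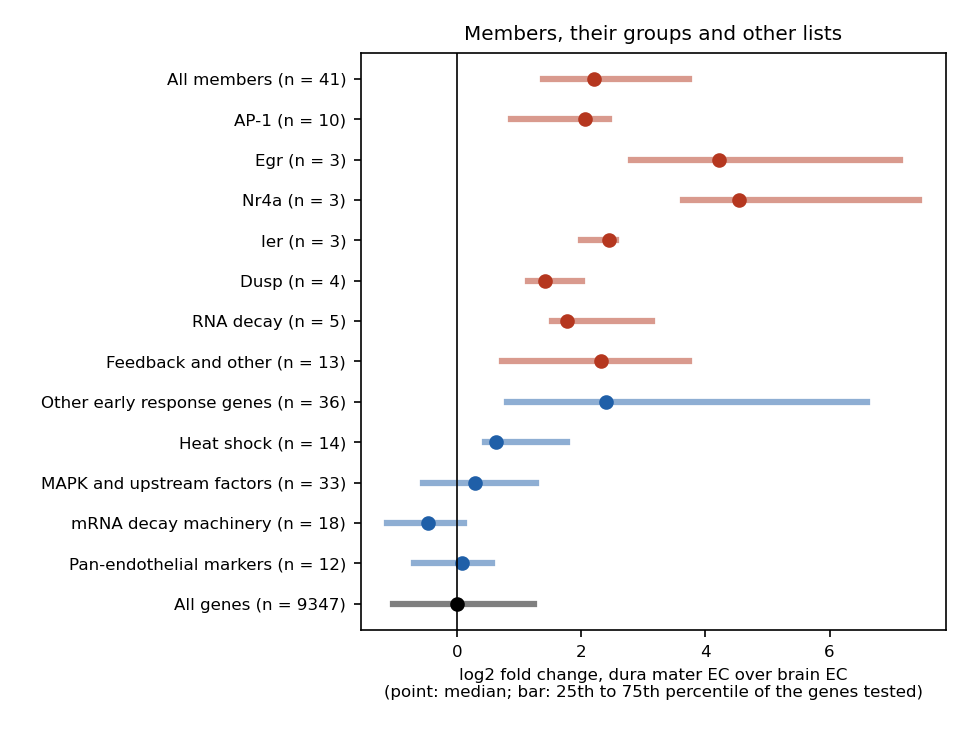
Median (point) and 25th to 75th percentile (bar) of the log2 fold change, dura mater EC over brain EC, of the tested genes. Shown are the 7 groups of immediate-early genes (red), 5 other lists (blue) and all genes (black), and n is the number tested. Through dura mater alone, 3 members and 10 of the other early response genes passed the filter. The same held for 1 of the MAP kinases and upstream factors and 1 gene of mRNA decay machinery. The medians are 2.21 for the members, 2.39 for the other early response genes, 0.62 for heat shock genes and -0.01 for all genes.

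The sorted cells carried the marks of endothelium. The 12 pan-endothelial markers were counted in every library and held 1.17% to 1.41% of counts in brain and 0.954% to 1.22% in dura mater. One of them was called, the tight junction gene Cldn5, at 1247 and 1317 CPM in brain and lower in dura mater at 213 and 235 CPM (log2 fold change -2.52, adjusted p = 0.039). Leukocyte markers, of which 16 of 17 were counted in some library, held 0.00542% to 0.0148% in brain and 0.0136% to 0.0251% in dura mater. Ptprc, which encodes CD45, had 1 to 4 counts in each library and Cd3e had 0. The myeloid genes Cd14 and Cd68 were higher in both dura mater libraries, at 2 and 3 and at 4 and 3 counts in brain and at 1860 and 1375 and at 550 and 441 counts in dura mater. Of the 8 tested leukocyte markers, 5 had a log2 fold change above 0 and 3, Csf1r, C1qa and Laptm5, lay below 0. Each of these 3 was split between the brain libraries, at 4 and 646, 436 and 1, and 1377 and 12 counts. In dura mater they were at 28 and 9, 2 and 25, and 204 and 133 counts. The 9 fibroblast markers held 0.00327% to 0.00488% in brain and 0.0367% to 0.0371% in dura mater, with Pdgfra at 0 or 1 count in each library. Of these, Dcn had 16 and 15 counts in brain and 1184 and 1664 in dura mater, and Col1a2 had 4 and 31 counts in brain and 1135 and 1913 in dura mater. The 9 mural markers held 0.0622% to 0.103% in brain and 0.0689% to 0.113% in dura mater. Of these, 7 had a log2 fold change above 0 and 2, Acta2 and Rgs5, lay below 0. Acta2 had 4979 and 10644 counts in brain and 7580 and 3663 in dura mater. The lowest p belonged to Kcnj8 (0 counts in both brain libraries, 468 and 410 in dura mater) and Cspg4 (0 and 1, 263 and 65). Both passed the filter through dura mater alone. Erythroid markers were higher in brain, at 1.80% to 2.46% beside 0.0773% to 0.148%, and the globin genes Hba-a1, Hbb-bs and Hbb-bt were called lower in dura mater, with log2 fold changes of -4.26, -4.27 and -4.15. 9 markers of neurons and glia held at most 0.0196% in any library. Of the 3 tested, 2 had a log2 fold change above 0 and 1, Mbp, lay below 0. Slc1a2 was at 1 and 0 counts in brain and at 863 and 87 in dura mater, and passed the filter through dura mater alone. Mbp was at 1476 and 4 counts in brain and at 1027 and 6 in dura mater. 6 markers of the bone lineage held at most 0.0165% in any library. Alpl was the only tested gene of the last list, with a log2 fold change of -0.16. The part of any of these cells in the difference of 3.60 percentage points in the immediate-early share was not tested, and in sorted bulk samples more RNA per cell and more cells with the RNA cannot be told apart.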

How the data were processed

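ECs of dura mater and of brain parenchyma were profiled with QuantSeq 3′ libraries, 2 per tissue, numbered in the sample titles. The authors deposited raw counts per gene symbol, 1 table per library. The methods name TopHat and cufflinks, and the submitters' processing notes name Bowtie2, edgeR and mm10. The counter, annotation, use of strand and molecular identifiers are not given in the sources used here. Without molecular identifiers, counts need not be independent molecules. Nothing says whether libraries came from separate mice, so p values measure the spread between libraries, which may be technical.

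Counts were tested with edgeR 4.0.16 in R 4.3.3 in place of cufflinks, which needs alignments: filterByExpr, TMM scaling, quasi-likelihood test with the older dispersion estimate, no term other than tissue, and Benjamini-Hochberg adjustment across 9347 genes. Log2 fold changes used a prior count of 2, and SE is the log2 fold change over the square root of F. DESeq2 1.42.0, limma-voom (limma 3.58.1) and other scalings, filters and sample sets were tried as alternatives. Scripts were tested on simulated data. Values of every library are given for members called and, in each group, for the member with the highest mean CPM and the largest log2 fold change, and for members with 7 or fewer counts in one library and at least 64 in the other of a tissue. Fos, Jun, Atf4, Egr3, Socs3, Csrnp1, Srf, Per1 and Cebpd were added after their values had been seen. From other lists, genes called are given, otherwise the 2 tested genes with the lowest p, of which 1 is not reported here. Members and lists were chosen with earlier results of these data known. Sequences came from GENCODE M21 and RefSeq GRCm38.p6, the assembly of mm10, and the counts were not remapped.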

Additional observations from a re-analysis of the deposited data

How the results depend on the processing

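No alternative reversed or removed the direction of the median member, which ranged from 1.96 to 2.47 on the log2 scale. Of 684 recomputed member fold changes with their calls, 555 kept direction and side of the threshold, 122 newly passed it and 1 (Zfp36) no longer did. 6 turned sign, all on leaving out a library: Maff (-0.09 without brain replicate 1, -0.28 without dura mater replicate 1), Dusp8 (-0.75 without brain replicate 2, -1.40 without dura mater replicate 1), Btg2 (-0.36 without brain replicate 2) and Per1 (0.39 without brain replicate 2). Over the 4 libraries left out in turn, Maff ranged from -0.28 to 1.43, Dusp8 from -1.40 to 7.75, Btg2 from -0.36 to 1.42 and Per1 from -1.55 to 0.39. The causes were not tested.

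Members called rose from 6 to 23 with DESeq2, 13 with limma-voom, 21 with the newer edgeR dispersion, 21 without a low-count filter and 16 with at least 10 counts in every library, all higher in dura mater. Other scalings and thinning to equal depth gave 6 to 8, and upper-quartile scaling moved the median of all genes from -0.01 to 0.13. For all genes the count of 57 became 810, 80, 306, 326 and 141 under these settings. Without the 10 most counted genes of each library, which include Fosb, Junb, Egr1 and Ier3, 2 members were called. Leaving out 1 library gave 8 to 25 members and 80 to 740 genes, with the highest counts on leaving out brain replicate 1 (25 and 740) or brain replicate 2 (23 and 701), where a lone brain library was assumed to vary like the dura mater pair and the median of all genes moved to 1.03 and 0.95. Leaving out dura mater replicate 1 or 2 gave 9 or 8 members and 80 or 97 genes. At an adjusted p under 0.01, edgeR called 0 members (26 at an unadjusted p under 0.05) and 1 gene in all. Calls among MAP kinases and upstream factors were 2 with DESeq2, Mapk9 (lower in dura mater) and Map3k5 (higher), of which Map3k5 passed the filter through dura mater alone. Calls among other early response genes rose from 1 to 14 with DESeq2, 5 with the replicate block and 4 with the 10-count filter. Among heat shock genes they rose from 0 to 2, 1 and 1. DESeq2 called 6.63% of all genes higher in dura mater. Of its early response calls, Klf10, Ptgs2, Il6, Errfi1, Spry4, Arc, Nfil3, Gem and Plaur had under 10 counts in both brain libraries. These passed the filter through dura mater alone. The difference of 3.60 percentage points in summed share was 2.10 without the 10 most counted genes, 3.14 without the most counted member of each library, and 3.54 to 3.66 on leaving out 1 library.

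The titles give both tissues the numbers 1 and 2. Same-numbered libraries did not deviate together across all genes (correlation -0.02), although members did (0.47), and with 2 pairs the numbers were not taken as pairs. With the replicate block 20 members and 224 genes (133 higher, 91 lower) were called, and the 6 members called without it were among them.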
